A study of Mus musculus with 20 samples.

Results

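The SPARC and SMOC family comprised 7 genes in these data, Sparc, Sparcl1, Smoc1, Smoc2, Spock1, Spock2 and Spock3, and its members were chosen by gene symbol. Every probe set that the array's platform annotation assigns to one of these symbols was taken, which gave 13 of the 45101 probe sets on the array and 7 of the 18193 genes that could be named. Sparc had 3 probe sets, Smoc2, Spock1, Spock2 and Spock3 had 2 each, and Sparcl1 and Smoc1 had 1 each. The family was put together with earlier results of these data known, among them that Smoc2 differed between the 2 classes of lines. Levels by class are therefore given as a description, and p-values of members are printed only for differences among lines of the same class, a contrast other than the one the choice used. The tests within a class were also set with earlier results of these data known.

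The study compared clonal lines isolated from Swiss 3T3 cells, an immortalized fibroblast population of mouse embryo origin, on a 3' oligonucleotide array. The 4 preadipose lines, which the labels mark as preadipocytes, were Swiss 2, Swiss 8 and Swiss 9 with 3 arrays each, plus Swiss 19 with 2 arrays. The 3 non-adipogenic lines were Swiss 3, Swiss 5 and Swiss 22 with 3 arrays each. Every line is a single clone, so a class is known here only through 4 or 3 clones. All 7 lines were grown in DMEM with bovine serum, without an inducer of differentiation, and were still dividing when RNA was taken. The labels name no transgene, deletion or agent in any line. The labels do not state that the arrays of a clone are separate cultures. P-values among lines therefore measure only the spread between these arrays, which may be technical.

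Members of this family share a follistatin-like domain and an extracellular calcium-binding domain. SPARC, also called osteonectin, is a matricellular protein that binds fibrillar collagens and modulates the contact of cells with the matrix, and in fat tissue it is known as a secreted product that restrains adipocyte differentiation. SPARC-like 1, or hevin, is its closest relative. SMOC1 and SMOC2 are secreted modular proteins with added thyroglobulin domains, and SMOC proteins are known as antagonists of BMP signalling. SPOCK1, SPOCK2 and SPOCK3, the testicans, are secreted proteoglycans with a thyroglobulin domain, best known from the nervous system and as modulators of proteases.

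Promoters are shown for a member that was bright in every line, Sparc, and for a member at or near background in most lines, Spock1. Each sequence runs from 250 bases before to 50 after the annotated start of the gene, 5' to 3' on the strand of the gene, from RefSeq on the GRCm38.p6 assembly. The Sparc promoter lies at chr11:55420031-55420330 on the minus strand and the Spock1 promoter at chr13:57908283-57908582 on the minus strand, and capitals mark CG dinucleotides.
Sparc: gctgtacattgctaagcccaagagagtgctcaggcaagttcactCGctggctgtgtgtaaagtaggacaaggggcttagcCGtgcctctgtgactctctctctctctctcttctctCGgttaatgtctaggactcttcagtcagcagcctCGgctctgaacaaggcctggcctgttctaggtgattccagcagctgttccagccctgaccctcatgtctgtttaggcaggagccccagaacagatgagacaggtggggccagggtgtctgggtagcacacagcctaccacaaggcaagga
Spock1: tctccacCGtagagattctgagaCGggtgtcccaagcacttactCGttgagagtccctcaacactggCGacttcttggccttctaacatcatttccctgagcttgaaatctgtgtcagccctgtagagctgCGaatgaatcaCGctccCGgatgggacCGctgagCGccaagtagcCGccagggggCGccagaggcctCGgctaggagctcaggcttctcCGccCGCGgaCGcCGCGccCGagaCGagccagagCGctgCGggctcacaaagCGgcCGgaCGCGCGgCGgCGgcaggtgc
The Sparc promoter held 4 CG dinucleotides, and 38.0% of the 32851 promoters in the table held no more than that. In the Spock1 promoter there were 29, with 88.3% of promoters at or below this number, against a median of 7. The letters TATAAA were absent from both windows on either strand, and 13.6% of all promoters held them. These counts describe the letters only, and methylation and factor binding were not measured.

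Levels are given as scaled intensity, the deposited linear intensity of a probe set after each array was scaled to a common trimmed mean of 500. Differences are given on the log2 scale of quantile-normalized log2(intensity + 32), which understates changes of dim probe sets. Background was the 95th percentile of 27 bacterial control probe sets that received no spike, and it ran from 76.9 to 144 scaled intensity among the lines. The arrays were unequal in brightness: their deposited mean intensity ran from 25.6 to 156.7. Split at the largest gap in 9 hybridization spikes, a gap of 1.62-fold, 11 arrays were dim and 9 bright. All arrays of Swiss 2, Swiss 8 and Swiss 9 were dim, all of Swiss 19, Swiss 5 and Swiss 22 were bright, and Swiss 3 had 2 dim arrays and 1 bright array. Class and brightness therefore overlapped only in part, and values within each set of arrays are given below for the members they touch. Wherever brightness was fitted as a block, its effect rested on Swiss 3 alone, the only line with arrays of both kinds. All 8 fibroblast markers looked for, among them Col1a1, Vim and Thy1, were above background in all 7 lines. Their summed scaled intensity was 319071 to 409840 on single preadipose arrays and 248324 to 301735 on single non-adipogenic arrays. Of 4 measured adipocyte markers, Cidec and Lep were at background in every line and the other 2 exceeded it in at least 1 line. Of 5 markers each, 3 endothelial, 3 leukocyte, 4 epithelial, 5 chondrocyte and 4 neural and glial markers exceeded background in at least 1 line, as did 3 of 4 osteoblast markers. At background in every line were Pecam1, Vwf, Ptprc, Itgam, Cdh1, Dmp1 and Snap25. The part of the fibroblast marker levels in differences of the members was not tested.

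Set against background, the family split into 2 members clearly above it and 5 at or near it. Sparc was far above background on all 20 arrays, where its probe sets 1448392_at and 1416589_at stood above the 99th percentile of all probe sets on each array. Smoc2 was above background on all 9 non-adipogenic arrays and at or near it on the preadipose arrays. For the other 5 genes the highest reading on any array was 283 scaled intensity, and no probe set of them exceeded background on more than 9 of 20 arrays. All 7 genes exceeded background in at least 1 line, but for these 5 genes that count rested on 1 to 3 of the 7 lines.

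**Figure D1:**
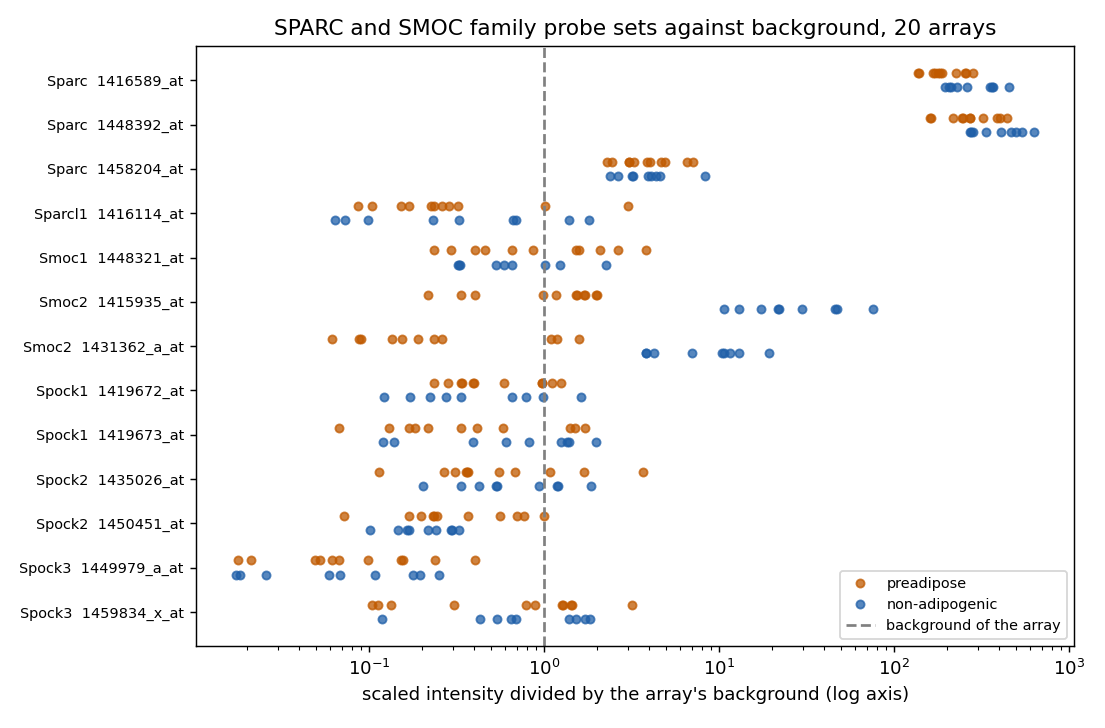
Scaled intensity divided by the background of the same array (log axis) for the 13 probe sets of the family, with 1 point per array for 11 preadipose and 9 non-adipogenic arrays. Probe sets 1448392_at and 1416589_at of Sparc lie far to the right of the dashed background line in both classes, those of Smoc2 lie to the right in the non-adipogenic class, and the points of Sparcl1, Smoc1, Spock1, Spock2 and Spock3 straddle the line or lie left of it. Positions of different probe sets are not levels to be compared with each other.

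Smoc2, a secreted matrix protein of the SMOC branch, was low in every preadipose line and high in every non-adipogenic line, and it was by far highest in Swiss 3. In the preadipose lines, probe set 1415935_at read 33.8, 267 and 49.2 scaled intensity on the arrays of Swiss 2, 30.2, 166 and 101 on those of Swiss 8, 163, 103 and 127 on those of Swiss 9, and 162 and 123 on those of Swiss 19. In the non-adipogenic lines it read 5742, 5810 and 5485 in Swiss 3, 1718, 1217 and 1491 in Swiss 5, and 1420, 1677 and 1589 in Swiss 22. The classes did not overlap on any array: the highest preadipose array, at 267, lay below the lowest non-adipogenic array, at 1217. In the deposited units, before any scaling, the same held, with 1 to 28.4 on preadipose arrays and 116 to 393 on non-adipogenic arrays. Of the preadipose arrays, 7 of 11 exceeded background, and only Swiss 9 and Swiss 19 did so as lines.

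As class means over lines, Smoc2 stood at 122 ± 18.8 scaled intensity in the preadipose lines (SD, n = 4) and 2905 ± 2402 in the non-adipogenic lines (SD, n = 3). With the preadipose lines below background set to it, Smoc2 was at least 22.4-fold lower in the preadipose class. The large SD of the non-adipogenic class followed from Swiss 3, at 5679 ± 172 against 1475 ± 251 in Swiss 5 and 1562 ± 131 in Swiss 22 (SD over 3 arrays). The log2 difference between the classes was -2.25 (SE 0.38), and it kept its sign in 16 of 16 other settings, from -4.09 to -1.68. Within the dim arrays alone the difference was -3.42, from 3 preadipose lines at a mean of 116 and Swiss 3 at 5776. Within the bright arrays it was -2.16, from Swiss 19 at 143 and 3 non-adipogenic lines at a mean of 2841. In the limma fit over all genes, with a threshold of 0.05 on the adjusted p, Smoc2 was the 1 member of 7 on the lower list and none was on the higher list, which for a member chosen on this contrast is no test. Over all genes, 0.951% were called lower and 0.583% higher, 1.53% in all, and nothing is read from the members' count. The difference ran from -2.55 to -1.70 over the fits without 1 line, the smallest in size being that without Swiss 3. With 1 probe set per gene on the log2 scale, Smoc2 was also the only member whose line means did not overlap, on the lower side, as in 7.53% of all genes, with 6.39% on the higher side and 13.9% in all. These are bulk RNA levels of clones, in which fewer cells with the transcript and less transcript per cell cannot be told apart.

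**Figure D2:**
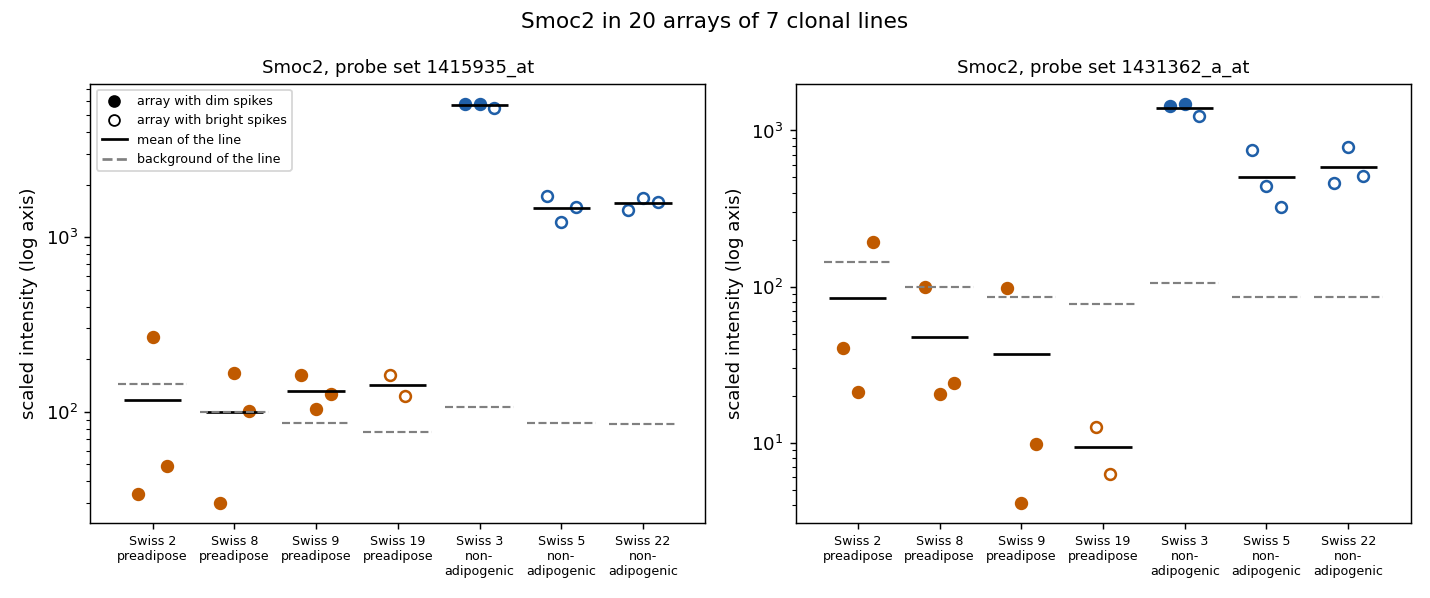
Scaled intensity of Smoc2 (log axis) by probe set, with 1 point per array, the mean of each line as a solid bar and its background as a dashed bar. Filled points are arrays with dim spikes and open points arrays with bright spikes. For 1415935_at the preadipose arrays end at 267 and the non-adipogenic arrays start at 1217, with Swiss 3 highest at 5485 to 5810.

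Differences among clones of the non-adipogenic class are another contrast than the one that brought Smoc2 into the family. They were tested, though this test too was set with earlier results of these data known. Smoc2 was above background in all 3 of these lines, which leaves room for a range on the log2 scale. The shares over all genes given here include genes at background, whose ranges are compressed. Among the 3 non-adipogenic lines, Smoc2 had a range of line means of 1.69 on the log2 scale, and the moderated F test of limma on all 20 arrays gave an adjusted p of 1.03e-08 (F = 141). Of all genes, 16.4% were called in that comparison and 0.110% had a range at least as large. Swiss 3 exceeded Swiss 5 by 1.69 (SE 0.11, adjusted p = 2.01e-08 in limma), a pair in which 15% of all genes were called, and the ratio of mean scaled intensity was 3.85. It exceeded Swiss 22 by 1.63 (SE 0.11, adjusted p = 3.07e-08), with 12.9% of all genes called, and the ratio was 3.64. Swiss 5 and Swiss 22 differed by -0.06 (SE 0.11, adjusted p = 0.951), where 1.54% of all genes were called. All 3 arrays of Swiss 3 lay above all 6 arrays of the other 2 clones.

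Of the Swiss 3 arrays 2 were dim and 1 was bright, and all arrays of Swiss 5 and Swiss 22 were bright. The bright Swiss 3 array read 5485 scaled intensity, against 1217 to 1718 on the 6 bright arrays of Swiss 5 and Swiss 22, a ratio of 3.61 to their mean of 1519. The 2 dim arrays of Swiss 3 averaged 5776. The F test among non-adipogenic lines was passed in all 17 other settings, which included leaving out each of the 9 arrays, with adjusted p-values from 2.21e-10 to 0.0144 in limma. With brightness as a block the adjusted p was 2.61e-05. Among the 4 preadipose lines Smoc2 had a range of 0.14, and the same test gave an adjusted p of 0.718 where 23.2% of all genes were called. Their levels were at or near background, which limits the differences that could be seen there.

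The other Smoc2 probe set, 1431362_a_at, gave the same order of the non-adipogenic lines. It read 40.5, 21.1 and 193 scaled intensity on arrays of Swiss 2, 98.8, 20.5 and 24.0 on those of Swiss 8, 97.8, 4.13 and 9.78 on those of Swiss 9, and 12.6 and 6.32 on those of Swiss 19. In the non-adipogenic lines it read 1437, 1487 and 1247 in Swiss 3, 746, 440 and 325 in Swiss 5, and 463, 788 and 511 in Swiss 22. The classes did not overlap here either, and no preadipose line exceeded background. Class means were 44.8 ± 31.1 in preadipose lines (SD, n = 4) and 827 ± 489 in non-adipogenic lines (SD, n = 3), at least 8.11-fold lower in the preadipose class. Among non-adipogenic lines its adjusted p was 0.000255 in the limma F test over all probe sets, in which 11.1% were called. Swiss 3 exceeded Swiss 5 by 0.93 and Swiss 22 by 0.82 on the log2 scale. The signal of 1431362_a_at as a share of that of 1415935_at was 0.227 to 0.256 in Swiss 3, 0.218 to 0.434 in Swiss 5 and 0.322 to 0.470 in Swiss 22. The shares of Swiss 3 and Swiss 5 overlapped, and those of Swiss 22 lay above all of Swiss 3.

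Sparc, the collagen-binding founder of the family, was bright in every line. In its brightest probe set, 1448392_at, the scaled intensity on the lowest array was 22169 and on the highest 39271. Probe set 1448392_at read 25169, 25002 and 26503 scaled intensity on arrays of Swiss 2, 22169, 26276 and 27946 on those of Swiss 8, 26593, 29909 and 29743 on those of Swiss 9, and 31321 and 29313 on those of Swiss 19. In the non-adipogenic lines it read 33865, 35875 and 32147 in Swiss 3, 36260, 32564 and 34843 in Swiss 5, and 36314, 37595 and 39271 in Swiss 22. No preadipose array reached the lowest non-adipogenic array, but the gap was small, 31321 in Swiss 19 against 32147 in Swiss 3. The class means were 27522 ± 2409 in preadipose lines (SD, n = 4) and 35415 ± 2024 in non-adipogenic lines (SD, n = 3), so the non-adipogenic mean was 1.29 times the preadipose mean.

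On the log2 scale the class difference of Sparc was -0.38 (SE 0.13) in 1448392_at, the probe set that stood for the gene. The difference was not called in limma, and after quantile normalization the line means of the classes overlapped in this probe set. Its sign was negative in 16 of 16 other settings, from -0.98 with arrays centred on their medians to -0.23 with the mean of all 3 probe sets. Within the dim arrays the difference was -0.39, from 3 preadipose lines at a mean of 26590 scaled intensity and Swiss 3 at 34870. Within the bright arrays it was -0.02, from Swiss 19 at 30317 and 3 non-adipogenic lines at a mean of 34810. The part of array brightness in the difference was not tested beyond these values.

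**Figure D3:**
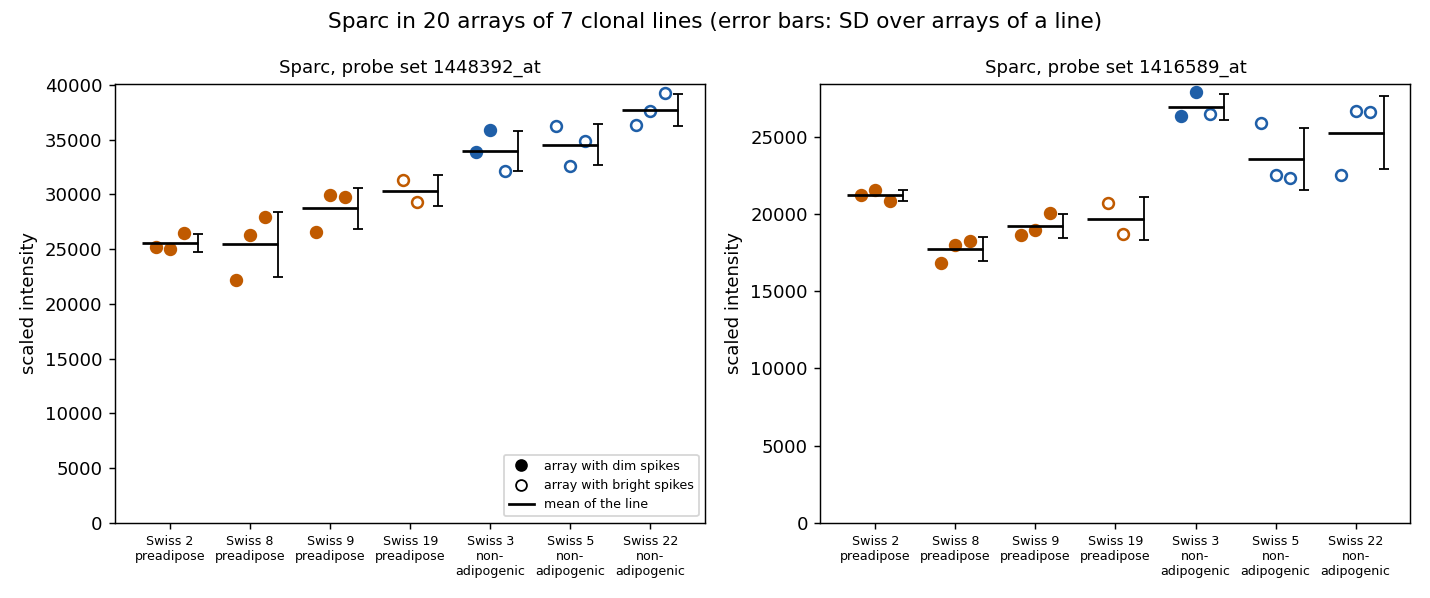
Scaled intensity of Sparc by probe set on a linear axis from 0, with 1 point per array, the mean of each line as a bar and the SD over its arrays as an error bar beside it. Filled points are arrays with dim spikes and open points arrays with bright spikes. In 1448392_at the preadipose arrays reach 31321 and the non-adipogenic arrays start at 32147, and in 1416589_at the corresponding values are 21546 and 22361.

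The Sparc probe set 1416589_at read 16844 to 21546 on the preadipose arrays and 22361 to 27896 on the non-adipogenic arrays, again without overlap. Its class means were 19467 ± 1443 in preadipose lines (SD, n = 4) and 25264 ± 1660 in non-adipogenic lines (SD, n = 3). The log2 difference was -0.40 (SE 0.09), and in 1416589_at the line means did not overlap after quantile normalization either. The third probe set, 1458204_at, lay closer to background, though above it on all 20 arrays. It read 248 to 577 on preadipose arrays and 226 to 637 on non-adipogenic arrays, so the classes overlapped. Class means of 1458204_at were 412 ± 101 in preadipose lines and 361 ± 115 in non-adipogenic lines, with a log2 difference of 0.08. The direction seen in the 2 bright probe sets was therefore not shared by 1458204_at, and which stretch of the gene each probe set covers was not used here.

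Lines of the same class also differed in Sparc, though these differences depended on the processing. Among preadipose lines the limma F test gave an adjusted p of 0.00208 with a range of 0.51, and Sparc was the 1 member of 7 called there, beside 23.2% of all genes. Swiss 19 was highest: Swiss 2, Swiss 8 and Swiss 9 lay below it by 0.44, 0.51 and 0.41 on the log2 scale, with adjusted p-values of 0.00269, 0.000874 and 0.00608 in limma (13.5%, 11.3% and 9.72% of all genes called in these pairs). Swiss 2, Swiss 8 and Swiss 9 did not differ from each other past the threshold: adjusted p was 0.696 for Swiss 2 against Swiss 8, 0.868 for Swiss 2 against Swiss 9 and 0.613 for Swiss 8 against Swiss 9, pairs in which 9.54%, 13.6% and 5.15% of all genes were called. Swiss 19 was also the only preadipose line on bright arrays, and the call was lost with brightness as a block (adjusted p = 0.0542), with scaled intensity in place of quantile normalization (0.260) and without replicate 1 of Swiss 19 (0.0589). In scaled intensity the line means were 25558 ± 823 for Swiss 2, 25463 ± 2973 for Swiss 8, 28748 ± 1869 for Swiss 9 (SD over 3 arrays each) and 30317 ± 1419 for Swiss 19 (SD over 2). Arrays of Swiss 9 and Swiss 19 overlapped on that scale, as did those of Swiss 2 and Swiss 8.

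The bright probe sets of Sparc disagreed on Swiss 2. In 1448392_at Swiss 2 and Swiss 8 differed by 0.07 on the log2 scale, and in 1416589_at by 0.30, with 21216 ± 353 scaled intensity in Swiss 2 and 17714 ± 766 in Swiss 8. Swiss 8 had the lowest preadipose mean of 1416589_at on both scales, while the highest was Swiss 2 in scaled intensity and Swiss 19 on the log2 scale. The F test of 1416589_at among preadipose lines gave an adjusted p of 0.00734 in limma over all probe sets, of which 15.3% were called. Among non-adipogenic lines 1448392_at had a range of 0.31 and an adjusted p of 0.0265 in the gene fit, with Swiss 22 highest. Swiss 3 lay below Swiss 22 by 0.31 (adjusted p = 0.0138), while Swiss 5 differed from Swiss 3 with an adjusted p of 0.595 and from Swiss 22 with one of 0.237. That F test was passed in 8 of 17 other settings, with adjusted p-values from 4.38e-07 to 0.612. It was lost, among others, with brightness as a block (0.0717) and without any single array of Swiss 22 (0.0607 to 0.115) or replicate 1 or 3 of Swiss 3 (0.0685 and 0.0755). In 1416589_at the highest non-adipogenic line was Swiss 3, with an adjusted p of 0.434 among the 3 lines, so the order of the non-adipogenic clones was not settled for Sparc.

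Sparcl1, the hevin gene, was at background in 6 of 7 lines. Its only probe set, 1416114_at, read 6.95 at the lowest, 23.1 at the median and 247 at the highest over 20 arrays. It exceeded background on 4 arrays, of which 2 were of Swiss 9, 1 of Swiss 3 and 1 of Swiss 5. Arrays of Swiss 9 read 247, 68.2 and 35.2, a spread wider than the difference between any lines of its class. Class means were 44.5 ± 48.5 in preadipose lines (SD, n = 4) and 53.3 ± 41.2 in non-adipogenic lines (SD, n = 3), and the classes overlapped.

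Smoc1, the paralog of Smoc2 and likewise a BMP antagonist, did not follow it. Probe set 1448321_at read 18.7 at the lowest, 55.1 at the median and 283 at the highest, and it exceeded background on 5 of 11 preadipose and 3 of 9 non-adipogenic arrays. Swiss 19 was the only line with every array above background, at 169 and 192, while the highest array of Swiss 22 read 44.4. In Swiss 3, where Smoc2 was highest, the arrays of Smoc1 read 283, 77.5 and 37.7, and 2 of the 3 exceeded background. Class means were 127 ± 43.6 in preadipose lines (SD, n = 4) and 81.4 ± 47.2 in non-adipogenic lines (SD, n = 3), with a log2 difference of 0.13 (SE 0.08). That difference was -0.04 with brightness as a block, and neither F test of Smoc1 was passed in limma (adjusted p = 0.607 among preadipose and 0.799 among non-adipogenic lines).

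The testicans stayed at or near background in most lines. Spock1, testican-1, read 8.20 at the lowest, 45.0 at the median and 155 at the highest in 1419673_at, with 7 of 20 arrays above background. All 3 arrays of Swiss 22 exceeded background, at 147, 104 and 145, whereas Swiss 5 read 47.2, 69.4 and 107 and Swiss 3 read 17.2, 30.0 and 13.9. The arrays of Swiss 22 and Swiss 3 did not overlap, while those of Swiss 22 and Swiss 5 overlapped. The limma F test among non-adipogenic lines gave an adjusted p of 0.0295 with a range of 0.37, and Swiss 3 lay below Swiss 22 by 0.37 (adjusted p = 0.0128). Spock1, Smoc2 and Sparc were the 3 members of 7 called among non-adipogenic lines, beside 16.4% of all genes.

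This call of Spock1 was passed in 8 of 17 other settings, with adjusted p-values from 0.0281 to 0.496 in limma. It was lost with brightness as a block (0.167), with the mean of both probe sets (0.496) and with scaled intensity in place of quantile normalization. The call was also lost without any single array of Swiss 3 or Swiss 22 (0.0523 to 0.0982). The other Spock1 probe set, 1419672_at, exceeded background on 3 of 20 arrays and in no line, and it read 81.2 on average in Swiss 3 and 33.9 in Swiss 22, the opposite order. Class means of 1419673_at were 60.3 ± 35.6 in preadipose lines (SD, n = 4) and 75.6 ± 55.8 in non-adipogenic lines (SD, n = 3), which overlapped.

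Spock2, testican-2, read 8.22 to 263 in 1435026_at with a median of 47.7, and 6 of 20 arrays exceeded background, 3 in each class. Among them were arrays of Swiss 2 at 169 and 263, beside the other array of the same line at 32.8, and 2 arrays of Swiss 22. Its other probe set, 1450451_at, exceeded background on 1 array, of Swiss 2. Spock3, testican-3, was above background on no array in 1449979_a_at, which read 1.90 to 49.2 with a median of 6.22. In 1459834_x_at it read 10.7 to 215 with a median of 80.3, with 5 of 11 preadipose and 4 of 9 non-adipogenic arrays above background. The suffix of that probe set marks probes that can also match other transcripts, so its signal is not assigned to Spock3 with certainty. In the probe sets that stood for the genes, 1435026_at and 1459834_x_at, the log2 difference between classes was 0.01 for Spock2 and 0.0001 for Spock3. No F test of these 2 probe sets was passed (adjusted p = 0.198 to 0.997 in limma). For 1450451_at the F test among preadipose lines gave an adjusted p of 0.117 in limma over all probe sets, of which 15.3% were called. Among preadipose lines Spock2 was called in 2 of 19 other settings, with arrays centred on their medians (0.000182) and without replicate 3 of Swiss 2 (0.0400), and adjusted p-values over these settings reached 0.425.

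The genes whose levels followed Smoc2 most closely over the 7 line means were sought among 919 genes above background in at least 1 line and with a range of at least 1 on the log2 scale. Smoc2 was the only member with such a range. Tshz2, which codes for a zinc finger protein, correlated with it at r = 0.99 and rho = 0.86 (7 lines). Its line means were 68.1, 100, 81.0 and 59.8 scaled intensity in the preadipose lines (Swiss 2, Swiss 8, Swiss 9, then Swiss 19), and 848, 375 and 425 in Swiss 3, Swiss 5 and Swiss 22. The preadipose means of Tshz2 were at or near background, as were those of Smoc2. Sort1, which codes for the sorting receptor sortilin, had r = 0.99 and rho = 0.89, with 327, 343, 341 and 314 in the preadipose lines and 1141, 615 and 701 in the non-adipogenic lines in the same order. Fibin, a secreted factor, had r = 0.98 and rho = 0.64, with 203, 115, 157 and 89.9 in the preadipose lines and 3341, 1719 and 1115 in the non-adipogenic lines. Swiss 3 was highest in each of them, a pattern that the choice by correlation with Smoc2 favours. Of the 919 genes, 34 had r above 0.95, and these correlations describe 7 points that fall into 2 classes and share arrays and brightness.

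**Figure D4:**
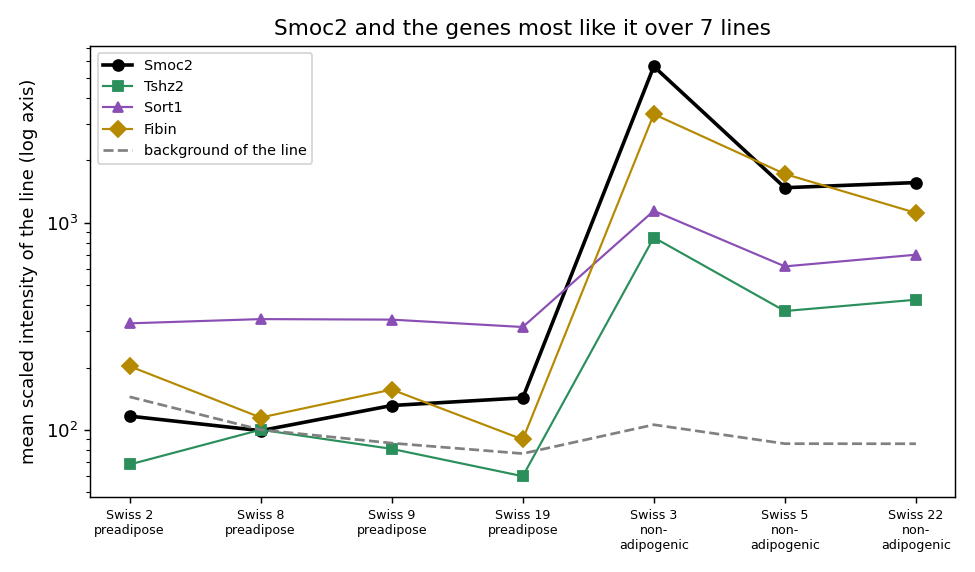
Mean scaled intensity of each line (log axis) for Smoc2 and the 3 genes with the highest correlation to it, with the background of each line dashed. In all 4 genes Swiss 3 stands highest and the 4 preadipose lines lie below the 3 non-adipogenic lines, and heights of different genes are not to be compared.

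Genes related to the family by domain or function were counted in lists chosen with earlier results known, against 0.583% of all genes called higher and 0.951% called lower in the preadipose class. Their median log2 differences are set beside a median of 0.00 over all genes. Because the lists were chosen so, the adjusted p-values between classes of genes named from them are a description and no test. Of 16 measured genes with a follistatin domain, 0 were called higher and 2 lower, with a median of -0.04. Htra1, a secreted serine protease, stood at 768 ± 503 scaled intensity in preadipose lines (SD, n = 4) and 4298 ± 860 in non-adipogenic lines (SD, n = 3; 5.59-fold lower, adjusted p = 0.0219). Fst, the secreted activin and BMP antagonist follistatin, stood at 6419 ± 1687 in preadipose lines and 16754 ± 5263 in non-adipogenic lines (2.61-fold lower, adjusted p = 0.0489). Of 11 measured genes with a thyroglobulin domain, 1 was called higher and 0 lower, with a median of -0.05. This was Igfbp4, an insulin-like growth factor binding protein, at 6038 ± 1381 in preadipose lines and 624 ± 155 in non-adipogenic lines (9.68-fold higher, adjusted p = 0.00439).

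Genes that meet the family in the matrix or in BMP signalling were counted in the same way. Their counts stand beside 0.583% of all genes called higher and 0.951% called lower, and nothing is read from them. Of 30 genes for partners and processing enzymes of SPARC, among them its collagen ligands, 0 were called higher and 1 lower, with a median of 0.07. The called gene was Vcam1, an adhesion receptor that binds SPARC, at 5853 ± 1377 in preadipose lines (SD, n = 4) and 13641 ± 674 in non-adipogenic lines (SD, n = 3; adjusted p = 0.0214). Of 5 measured targets of testicans, 0 were called higher and 1 lower, with a median of -0.16. It was Ctsl, the lysosomal protease cathepsin L, at 21801 ± 1969 in preadipose lines and 34529 ± 5779 in non-adipogenic lines (adjusted p = 0.0214).

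Of 20 BMP ligands, receptors and targets none was called in either direction by limma, with a median of -0.09, and 8 of them had an unadjusted p under 0.05, as did 2842 of all 18193 genes. Line means did not overlap for 3 of the 20 on the higher side and 5 on the lower side, beside 6.39% and 7.53% of all genes. The largest in size without overlap were Id4 and Id2, inhibitors of basic helix-loop-helix factors that BMP signals induce. Id4 stood at 1434 ± 523 in preadipose lines and 3421 ± 454 in non-adipogenic lines (adjusted p = 0.0628). Id2 stood at 840 ± 315 in preadipose lines and 1762 ± 142 in non-adipogenic lines (adjusted p = 0.0835). Line means of Id1 and Id3 overlapped between the classes, with class means of 8573 and 6209 in preadipose lines and 8559 and 8704 in non-adipogenic lines. The receptor gene Acvr1 was higher in preadipose lines without overlap, at 687 against 429. Of 17 other matricellular genes limma called none, with a median of 0.07, and 6 had an unadjusted p under 0.05. Tnc, or tenascin-C, stood at 2004 ± 737 in preadipose lines and 3762 ± 1200 in non-adipogenic lines, and Ccn3 at 615 ± 389 in preadipose lines and 175 ± 54.4 in non-adipogenic lines (adjusted p = 0.232 and 0.217).

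The calls of these 5 related genes kept their sign in 16 of 16 other settings but not their side of the threshold. Igfbp4 was called in 15 of them (adjusted p from 3.17e-12 to 0.400), Htra1, Vcam1 and Ctsl in 9 each, and Fst in 6. With arrays centred on their medians none of the 5 was called. Htra1 and Vcam1 were lost without Swiss 2, Swiss 8, Swiss 9, Swiss 3, Swiss 5 or Swiss 22 (adjusted p = 0.0581 to 0.0951 and 0.0501 to 0.0958). Ctsl was lost without Swiss 2, Swiss 8, Swiss 9, Swiss 5 or Swiss 22 (0.0550 to 0.0609), and Fst in the fits without 1 line other than that without Swiss 3 (0.0659 to 0.163).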

How the data were processed

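RNA of 20 samples was measured on 1 array each. The deposited values are linear intensity values per probe set, and per the labels' protocols RNA was reverse-transcribed with an oligo-dT primer and amplified by in vitro transcription. How the authors summarized and scaled the deposited intensity is not given in the sources used here, and no depth applies to arrays, whose number limits the precision.

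From these values, 64 control probe sets were left out, log2(intensity + 32) was quantile-normalized because array medians differed by 0.607, more than the 0.2 allowed, and the brightest of the probe sets with 1 symbol stood for a gene. Classes were compared over 7 line means, and lines of a class over 20 arrays, with limma 3.58.1 in R 4.3.3, Benjamini-Hochberg adjustment over 18193 genes and a threshold of 0.05. The scripts were tested on simulated data. Scaled intensity, with 2% trimmed at each end, gives levels and folds. In "at least" folds, dim lines below background were set to it.

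The members, lists and tests were chosen with earlier results of these data known. Named genes were all members, up to 4 called genes per list (or up to 2 without overlap), the 3 genes most like a member with a range of at least 1, and 2 neighbours on each side without overlap. Id1, Id3 and Acvr1 were named beside these. Replicate numbers did not pair the arrays: deviations of same-numbered arrays correlated at -0.03 to 0.05. Gene identifiers were matched to RefSeq, and promoters of Sparc and Spock1 were taken from it.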

Additional observations from a re-analysis of the deposited data

Results flagged for a closer look

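Among the 4 preadipose line means of Sparcl1 in 1416114_at, Swiss 9 stood apart on the high side, with a gap to its nearest neighbour that made up 0.918 of the whole range. Its 3 arrays read 247, 68.2 and 35.2 scaled intensity, and 1 of them lay below background. Among those of Spock1 in 1419672_at, Swiss 8 stood apart on the low side, with a gap share of 0.889, though the 4 means spanned only 0.02 on the log2 scale and all lay below background. Chance gives a gap this wide in about 1 in 20 groups of 4, and 13 probe sets were looked at.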

How the results depend on the processing

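Of the 7 class differences of members over 16 other settings each, 105 moved by less than the spread between lines and 7 by more, and Smoc2 and Sparc were lower in preadipose lines in every setting. Genes called between classes numbered 279, against 7 with arrays centred on their medians (1 higher and 6 lower, against 106 and 173), 421 without genes above background in no line, 2061 with the line as a random block, 87 on scaled intensity with no quantile step (added after seeing the data), and 55 to 470 without 1 line. The members called between classes numbered 1, against 0 with a pseudocount of 64, 2 with the random block, 0 with every probe set tested on its own (added after seeing the data), and 0 to 1 without 1 line: Smoc2 was not called without Swiss 2, Swiss 8, Swiss 9, Swiss 5 or Swiss 22. Among preadipose lines 1 member was called, against 3 with arrays centred on their medians, 0 with brightness as a block, 0 on scaled intensity and 0 to 2 without 1 array. Among non-adipogenic lines 3 were called, against 4 with arrays centred on their medians (Sparcl1 gained), 1 with the mean of all probe sets, 1 with brightness as a block, 1 on scaled intensity and 1 to 3 without 1 array, and Smoc2 was called in each of these. The cause of these changes was not tested. Without a Swiss 19 array, the remaining one was assumed to vary like those of other lines. With the replicate block 292 genes were called between classes, and the counts of members (1, 1 and 3) did not change. For 5 of 7 members the precision is limited by signal at background, where log2 differences are compressed by the pseudocount.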

Other observations

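The genes next to the members on the chromosome, up to 2 on each side in the RefSeq gene table, numbered 28, of which 2 (7.14%) had line means without overlap between the classes, against 13.9% of all genes, and neither was past the threshold. Fat2, beside Sparc and coding for a giant cadherin, read 111 ± 32.2 scaled intensity in preadipose lines (SD, n = 4) and 54.9 ± 12.0 in non-adipogenic lines (SD, n = 3; adjusted p = 0.336 in limma), where no non-adipogenic line exceeded background. Tll1, beside Spock3 and coding for a protease of the BMP1 family, read 76.2 ± 14.7 in preadipose lines and 185 ± 57.7 in non-adipogenic lines (adjusted p = 0.169). Thbs2, thrombospondin 2, the gene next to Smoc2, was looked at after its values were seen. It read 9049 ± 1662 in preadipose lines and 11999 ± 2234 in non-adipogenic lines, and the line means overlapped (adjusted p = 0.286).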
